A study of Mus musculus with 6 samples.

Results

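The genes described here are 40 cyclins, cyclin-dependent kinases and mitosis genes, followed in mouse liver with and without SIRT7, a nuclear deacetylase of the sirtuin family. A listed gene was a member where the array had a probe set annotated with exactly 1 gene symbol, and where a gene had several such probe sets the one with the highest mean over the 6 arrays stood for it. By that rule 38 of the 40 genes were measured, out of 12393 genes in all. No probe set with a single symbol was found for Ccnb1 (cyclin B1) or Cdca8 (borealin), so neither has a value. Of the 38, 34 had a mean log2 value of at least 4 and entered the test. Foxm1, Ttk, Cenpe and Ndc80 were below that level and are given as values only. Aurkb, Bub1 and Plk1 reached it only through the knockout livers, since their wild-type means were under 4, so counts over the 34 tested genes include 3 that entered by being high in knockout, and lend no support to a difference. Counts that need no test are also given over the 38.

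The study compared total RNA from 3 liver samples of wild-type mice and 3 of SIRT7 knock-out mice, each hybridised to its own 1-colour Affymetrix array, under a title that names tumour suppression and MYC activity. The wild-type group carried the wild-type Sirt7 allele, and the other group lacked SIRT7. The labels state 1 common treatment for all samples without describing it, and give no strain, age, sex, diet, time of day or batch. They do not say whether the knockout covered the whole body or whether each sample was a separate animal, and p-values therefore describe only the variation among the 6 samples, part of which can be technical.

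A dividing cell copies its chromosomes in S phase and parts them in mitosis, and paired cyclins and cyclin-dependent kinases drive the passage from each stage to the next. D- and E-type cyclins act before S phase, cyclin A in S phase and after it, and B-type cyclins with CDK1 at mitotic entry. Transcripts of most mitotic genes accumulate only as cells approach division, through promoter elements named CHR, bound by MuvB complexes, and CCAAT boxes, bound by the factor NF-Y. Most hepatocytes of an adult liver are quiescent and many are polyploid, whereas hepatocytes of young animals or of a regenerating liver divide. In whole-tissue RNA, fewer cells of a type and less RNA per cell cannot be told apart, and this holds for every value below.

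Sirt7 itself matched the labels, with log2 values of 9.85, 9.80 and 9.57 in wild type and 2.38, 3.11 and 2.86 in knockout (limma, adjusted p = 3.987e-06). Array medians lay between 5.69 and 5.77. Markers of hepatocytes were high in all 6 livers, with a mean of 12.36 to 12.71 over 8 genes. Over all tested genes wild-type replicate 3 correlated at 0.968 to 0.971 with the other wild-type arrays and at 0.972 to 0.979 with the knockout arrays. Wild-type replicates 1 and 2 correlated at 0.984. That liver also stood apart in the mitosis genes, as described next. Differences are given both with it and without it, and the second kind are descriptions only: the liver was singled out by its values in these same genes, so the values without it are no test of the genotype and no gene is said to have risen from them.

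Mitosis genes were low in wild-type replicates 1 and 2 and high in wild-type replicate 3 and in all 3 knockout livers. Over the 38 measured genes the mean log2 value was 5.22, 4.66 and 6.66 in wild-type replicates 1, 2 and 3, and 6.66, 6.71 and 6.58 in knockout replicates 1, 2 and 3. Wild-type replicate 3 thus had the same mean as knockout replicate 1 and lay within the range of the knockout livers. Wild-type replicate 2 was the lowest of the 6 livers in 34 of the 38 genes, against 1047 of the 8343 tested genes. Wild-type replicate 3 exceeded both other wild-type livers in 35 of the 38 genes and in 31 of the 34 tested ones, whereas it did so in 37.2% of all tested genes.

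**Figure D1:**
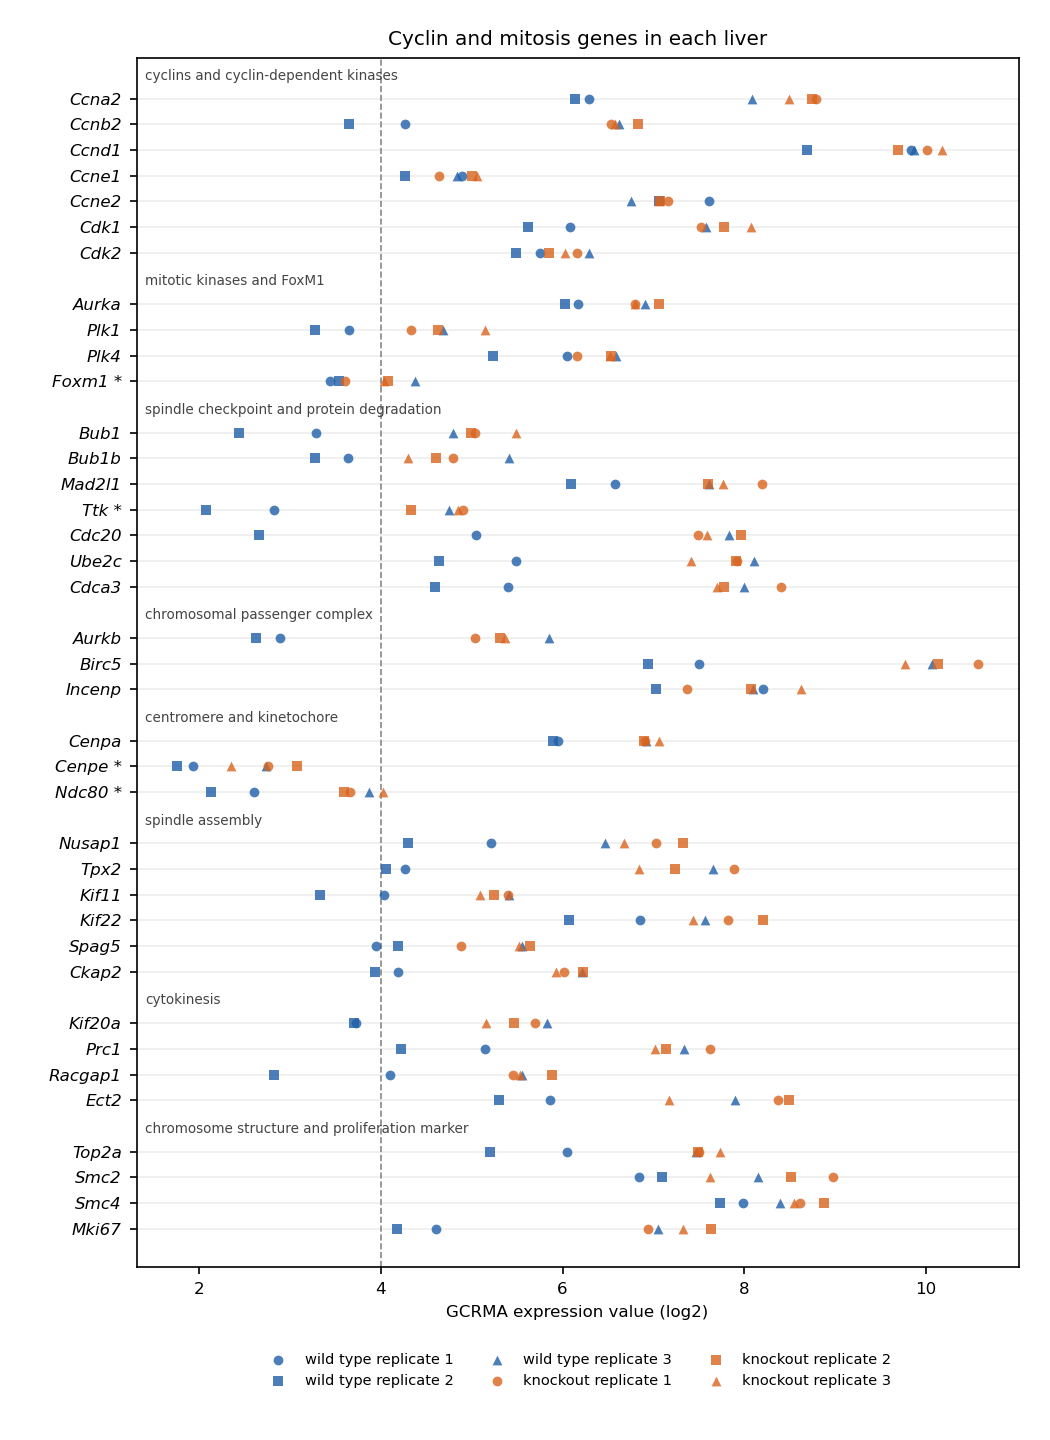
Each measured member in each of the 6 livers, on the log2 scale, with genes ordered by role. Most rows are low in wild-type replicates 1 and 2 and high in wild-type replicate 3 and the 3 knockout replicates; Ccne2 and Incenp are among the rows without that pattern.

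With all 6 livers, no member passed the test between genotypes. Knockout means were above wild-type means in 37 of 38 measured genes and in 33 of 34 tested genes, with a median difference of 1.06 and 1.19 log2 units respectively. Over all 8343 tested genes, 3785 were higher in knockout and the median difference was -0.03. The differences of the tested members ran from -0.04 for Ccne2 to 2.50 for Cdc20. Limma called 0 of the 34 at an adjusted p under 0.05, the smallest being 0.652, and 2 of all tested genes, Sirt7 and the chemokine gene Cxcl14, which is 0.024%. At an unadjusted p under 0.05, 20 of the 34 were higher in knockout and 0 lower, where the share over all tested genes was 3.04% higher. The groups did not overlap in 5 of the 34, namely Ccna2, Bub1, Nusap1, Top2a and Smc4, and in the same 5 of the 38, with every knockout value above every wild-type value; this was so in 4.27% of all tested genes. With array weights, which gave knockout replicate 2 a weight of 6.12 and knockout replicate 3 one of 0.31, limma called 28 of the 34 members and 1748 of all tested genes.

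The size of the difference depended on wild-type replicate 3. Without that liver, the median difference of the 34 genes was 1.83 against -0.04 over all tested genes. Limma then gave 15 of the 34 an adjusted p under 0.05, all higher in knockout, among 30 genes higher in all, or 0.36%, and 8 lower. That count follows from removing the wild-type liver in which these genes were high, and leaving out any other liver gave 0 of the 34. The knockout values were then above both remaining wild-type values in 30 of the 34 and 34 of the 38, against 14.3% of all tested genes. Leaving out wild-type replicate 1 or 2 in its place lowered the number at an unadjusted p under 0.05 from 20 to 6 and to 5. Set against wild-type replicate 3 alone, the knockout mean differed by a median of 0.03, and that liver was above all 3 knockout livers in 7 of the 34, below all 3 in 6 and among them in 21. Those shares were 20.6%, 17.6% and 61.8%, close to the 22.4%, 17.4% and 60.2% over all tested genes.

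**Figure D2:**
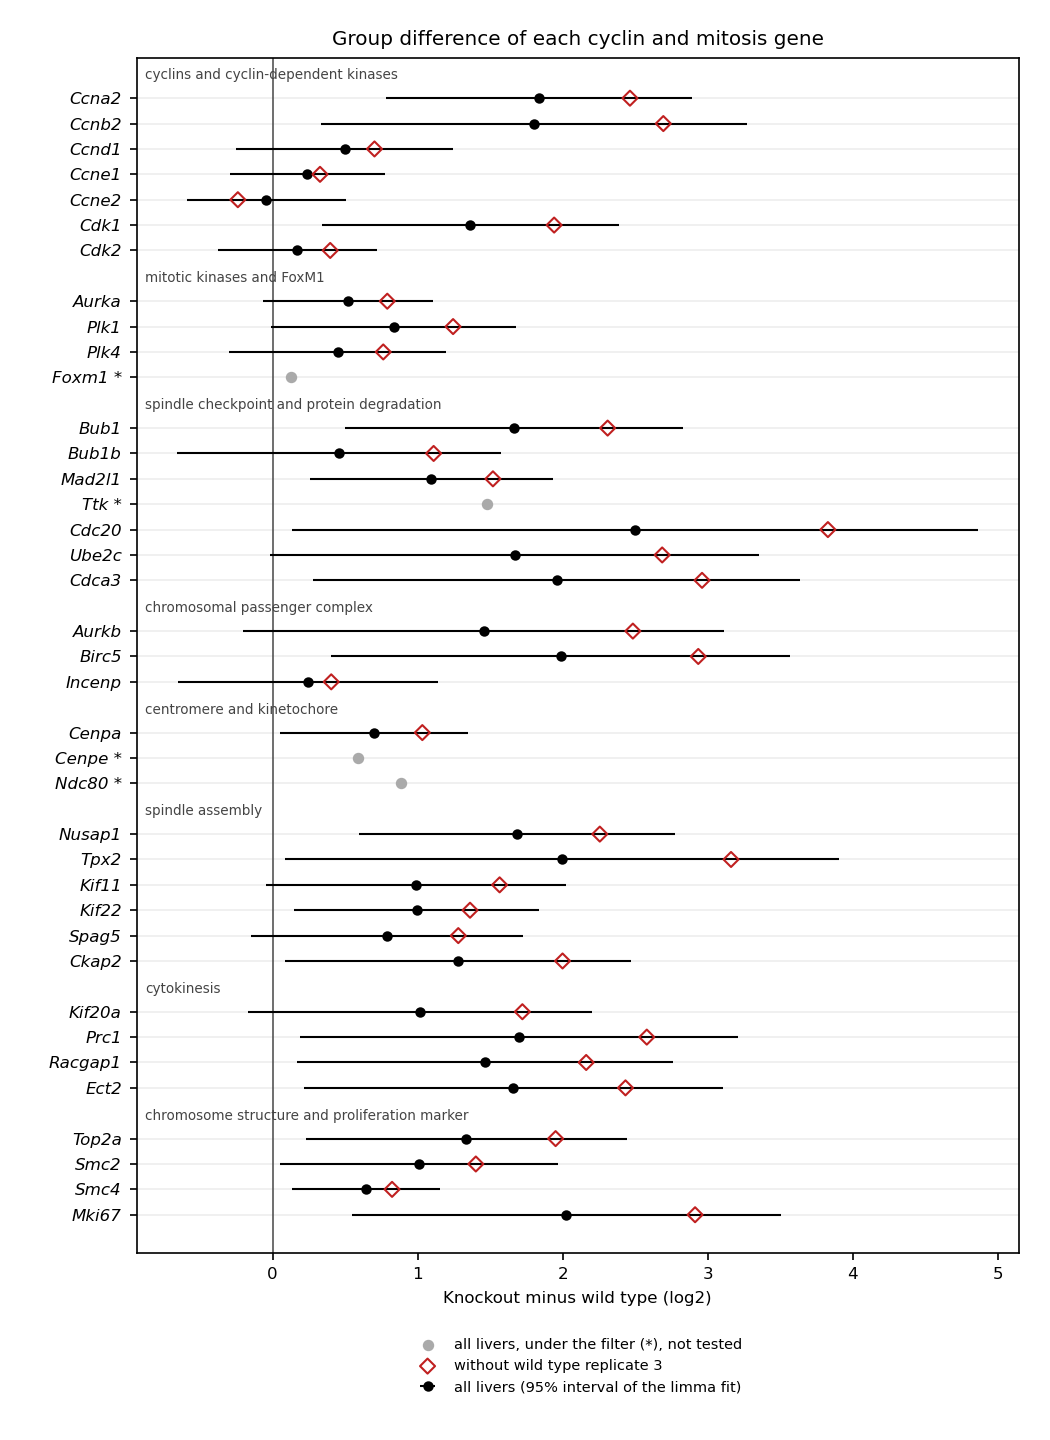
Knockout minus wild-type difference in log2 value for each tested member, with its 95% confidence interval from all 6 livers and the same difference without wild-type replicate 3. Nearly all differences are above 0 and most grow when that liver is left out, while Ccne2 stays near 0 with all 6 livers.

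Promoter sequences are shown because most members had a like pattern over the livers, and because the elements named above can be read in them. RefSeq promoters on build GRCm38.p6, spanning 250 bases before to 50 after each gene's start, were found for 31 of the 40 genes, 33 promoters in all. They were searched on both strands for the CHR as TTTGAA or TTTAAA, for the CCAAT box as CCAAT, and for E2F sites as TTTGGCGC, TTTCCCGC, TTTGCCGC or TTTCGCGC. A CHR was found in 29 of the 33 (87.9%), against 27.6% of all 32851 promoters of the table. A CCAAT box was found in 27 of the 33 (81.8%), against 37.4%. Both elements together were in 25 of the 33 (75.8%), against 10.7%, and an E2F site in 2 (6.06%), against 2.26%. The 4 genes whose promoters held no CHR in this window were Bub1, Cdk2, Mad2l1 and Nusap1. A match describes letters in this window and is not a measured binding site.

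The 150 bases before the start of 6 members are given 5′ to 3′ on the gene's own strand, in lower case with matches to any of these motifs in capitals; a CCAAT box on the other strand reads ATTGG, and a CHR there reads TTCAAA or TTTAAA. Cdc20 had the largest difference among the members and Mki67 is the usual proliferation marker. Cdk1 is the kinase of mitotic entry, and Top2a is a gene with several CCAAT boxes. Nusap1 differed between the groups without overlap and has no match. Ccne1 holds a CHR, and its groups overlapped, as did those of Cdc20, Mki67 and Cdk1. The regions are chr4:118437344-118437493 on the minus strand for Cdc20, chr7:135716380-135716529 on the minus strand for Mki67, chr10:69352913-69353062 on the minus strand for Cdk1, chr11:99024190-99024339 on the minus strand for Top2a, chr2:119618148-119618297 on the plus strand for Nusap1 and chr7:38107491-38107640 on the minus strand for Ccne1.
Cdc20: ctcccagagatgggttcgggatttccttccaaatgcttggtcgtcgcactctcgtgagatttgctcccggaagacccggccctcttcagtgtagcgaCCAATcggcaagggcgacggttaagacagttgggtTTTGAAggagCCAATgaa
Mki67: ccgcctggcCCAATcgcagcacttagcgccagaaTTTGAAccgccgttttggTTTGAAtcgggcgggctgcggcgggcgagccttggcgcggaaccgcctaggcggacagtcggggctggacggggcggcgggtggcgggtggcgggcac
Cdk1: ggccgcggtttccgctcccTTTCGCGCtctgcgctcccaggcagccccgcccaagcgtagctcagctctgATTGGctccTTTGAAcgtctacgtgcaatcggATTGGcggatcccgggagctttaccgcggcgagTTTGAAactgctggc
Top2a: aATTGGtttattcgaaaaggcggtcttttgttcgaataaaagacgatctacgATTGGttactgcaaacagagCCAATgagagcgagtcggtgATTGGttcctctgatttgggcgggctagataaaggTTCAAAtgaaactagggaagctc
Nusap1: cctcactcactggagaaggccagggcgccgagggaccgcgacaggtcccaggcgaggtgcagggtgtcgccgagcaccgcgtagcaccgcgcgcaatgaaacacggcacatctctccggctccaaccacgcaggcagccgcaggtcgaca
Ccne1: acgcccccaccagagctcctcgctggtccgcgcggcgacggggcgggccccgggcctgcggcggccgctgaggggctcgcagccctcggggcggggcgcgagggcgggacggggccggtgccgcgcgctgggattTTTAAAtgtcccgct

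Among the cyclins and their kinases, Ccna2, Ccnb2 and Cdk1 had the larger differences and Ccnd1, Ccne1, Ccne2 and Cdk2 the smaller ones. Ccna2, cyclin A2, had log2 values of 6.29, 6.14 and 8.09 in wild type and 8.79, 8.75 and 8.49 in knockout. Its groups did not overlap, though wild-type replicate 3 lay much nearer to the knockout livers than to its own group. The means were 6.84 ± 1.09 (SD, n = 3) and 8.68 ± 0.16 (SD, n = 3), a difference of 1.84 (SE 0.46; limma, adjusted p = 0.652), or 3.58-fold. Without wild-type replicate 3 the difference was 2.46. Cdk1, the partner kinase of the A- and B-type cyclins, had values of 6.08, 5.62 and 7.58 in wild type and 7.53, 7.78 and 8.07 in knockout. Its groups met only through wild-type replicate 3, which exceeded knockout replicate 1 by a small margin. The difference was 1.36 (SE 0.45; limma, adjusted p = 0.746), and without that liver 1.94. Ccnb2, cyclin B2, differed by 1.80, and by 2.69 without wild-type replicate 3.

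Ccnd1, cyclin D1, which responds to growth signals, had values of 9.83, 8.69 and 9.87 in wild type and 10.01, 9.70 and 10.18 in knockout. Wild-type replicate 2 was the low one here, and wild-type replicates 1 and 3 were alike. The difference was 0.50 (SE 0.33; limma, adjusted p = 0.796), while 2 further probe sets of Ccnd1 differed by 0.84 and 1.0. Ccne1, cyclin E1, had values of 4.89, 4.26 and 4.84 in wild type and 4.64, 5.00 and 5.06 in knockout. The difference was 0.24 (SE 0.23; limma, adjusted p = 0.852), and the groups overlapped. Ccne2, cyclin E2, had values of 7.61, 7.07 and 6.75 in wild type against 7.16, 7.08 and 7.06 in knockout. It was the single tested member with the lower mean in knockout, by -0.04 (SE 0.24; limma, adjusted p = 0.978), and here wild-type replicate 3 was the lowest liver. Without wild-type replicate 1 its difference was 0.19. Cdk2, a partner of the E-type cyclins, differed by 0.17 with overlapping groups.

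Aurka, Plk1 and Plk4, which were listed together with Foxm1, had differences below the median of 1.19 over the tested members. Plk1, a kinase of mitotic entry and spindle formation, had values of 3.65, 3.27 and 4.69 in wild type and 4.34, 4.63 and 5.14 in knockout. The difference was 0.83 (SE 0.37; limma, adjusted p = 0.773), at a level close to the lower limit used for testing. Aurka, the centrosomal Aurora kinase, had values of 6.17, 6.02 and 6.91 in wild type and 6.80, 7.06 and 6.79 in knockout. Wild-type replicate 3 was above 2 of the knockout livers, and the difference was 0.52 (SE 0.26; limma, adjusted p = 0.775). Plk4, which controls centriole duplication, differed by 0.45 (SE 0.33; limma, adjusted p = 0.806), with values of 6.05, 5.23 and 6.59 in wild type and 6.15, 6.53 and 6.53 in knockout. In Plk4 wild-type replicate 3 was the highest of the 6 livers. Foxm1, the transcription factor that acts with MuvB on mitotic genes, was too dim to test, with 3.44, 3.54 and 4.37 in wild type and 3.61, 4.08 and 4.04 in knockout. That probe set differed by 0.12. Further probe sets of Foxm1, also too dim to test, differed by 1.04, 0.12 and 0.007, so its difference depended on the probe set.

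The spindle checkpoint and the degradation machinery it restrains held some of the larger differences. Bub1, a checkpoint kinase at kinetochores, had values of 3.29, 2.44 and 4.80 in wild type and 5.04, 4.99 and 5.49 in knockout. The groups did not overlap, and the difference was 1.67 (SE 0.51; limma, adjusted p = 0.746). Without wild-type replicate 3 it was 2.31. Mad2l1, the checkpoint protein that binds CDC20, had values of 6.58, 6.09 and 7.61 in wild type and 8.20, 7.60 and 7.76 in knockout, a difference of 1.09 (SE 0.37; limma, adjusted p = 0.746). Wild-type replicate 3 and knockout replicate 2 were nearly equal. Bub1b, which encodes BUBR1, had 3.63, 3.27 and 5.42 in wild type and 4.79, 4.61 and 4.29 in knockout, a difference of 0.46 (SE 0.49; limma, adjusted p = 0.863). In Bub1b wild-type replicate 3 was above every knockout liver, and the difference without it was 1.11.

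Cdc20, the activator of the anaphase-promoting complex, had the widest range of the tested members, with 5.05, 2.66 and 7.84 in wild type and 7.49, 7.97 and 7.59 in knockout. The wild-type livers spanned low, very low and knockout-like values while the knockout livers were alike. The difference was 2.50, and 3.83 without wild-type replicate 3. Further probe sets of Cdc20 with a mean of at least 4 differed by less, 1.48 and 1.09. In these, wild-type replicates 1 and 2 lay closer together than in the probe set used. Ube2c, the ubiquitin-conjugating enzyme of that complex, and Cdca3, a cell cycle gene listed with it, differed by 1.67 and 1.96. Without wild-type replicate 3 the differences were 2.69 and 2.96. Ttk, the checkpoint kinase MPS1, was not tested and had means of 3.21 in wild type and 4.69 in knockout.

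Of the chromosomal passenger complex, which corrects the attachment of chromosomes to the spindle, 2 of the 3 measured subunits followed the common pattern. Birc5, survivin, was the brightest of them, with values of 7.51, 6.95 and 10.07 in wild type and 10.58, 10.14 and 9.77 in knockout. Wild-type replicate 3 lay among the knockout livers. The difference was 1.99 (SE 0.70; limma, adjusted p = 0.76), and 2.94 without that liver. Aurkb, the kinase of the complex, had values of 2.89, 2.63 and 5.85 in wild type and 5.04, 5.32 and 5.37 in knockout. Here wild-type replicate 3 was the highest of the 6 livers. The difference was 1.46 (SE 0.73; limma, adjusted p = 0.775), and 2.48 without it. Incenp, the scaffold, had 8.20, 7.03 and 8.10 in wild type and 7.37, 8.07 and 8.62 in knockout, a difference of 0.24 (SE 0.39; limma, adjusted p = 0.902). Its livers were mixed, with wild-type replicate 1 above wild-type replicate 3, and without wild-type replicate 2 the difference was -0.13.

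At the centromere, Cenpa, the histone H3 variant that marks it, had values of 5.95, 5.90 and 6.92 in wild type and 6.91, 6.90 and 7.06 in knockout. The knockout livers and wild-type replicate 3 differed by less than the gap to the other 2 wild-type livers. The difference was 0.70 (SE 0.28; limma, adjusted p = 0.769). Leaving out wild-type replicate 3 gave 1.03. Cenpe, a kinetochore motor, and Ndc80, which binds microtubules there, were too dim to test. Cenpe had means of 2.14 and 2.73 in wild type and knockout, and Ndc80 had means of 2.87 and 3.76.

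Among spindle assembly genes, Nusap1, a microtubule-bundling protein, had 5.21, 4.30 and 6.47 in wild type and 7.03, 7.33 and 6.67 in knockout. The groups did not overlap, and the difference was 1.69 (SE 0.48; limma, adjusted p = 0.725), or 2.26 without wild-type replicate 3. Kif22, a motor that moves chromosome arms, had 6.86, 6.07 and 7.57 in wild type and 7.83, 8.21 and 7.44 in knockout, a difference of 0.99 (SE 0.37; limma, adjusted p = 0.76). Wild-type replicate 3 was above knockout replicate 3. Spag5, also called astrin, had 3.94, 4.19 and 5.55 in wild type and 4.88, 5.64 and 5.52 in knockout, a difference of 0.79 (SE 0.41; limma, adjusted p = 0.786). The other 3 genes were Tpx2, the activator of Aurora A, Ckap2, a microtubule-associated protein, and Kif11, the motor that separates spindle poles. They differed by 2.0, 1.28 and 0.99, and without wild-type replicate 3 by 3.16, 2.0 and 1.56.

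All 4 cytokinesis genes had higher knockout means with overlapping groups. Ect2, the exchange factor that starts the contractile ring, had 5.86, 5.30 and 7.90 in wild type and 8.37, 8.50 and 7.17 in knockout, a difference of 1.66 (SE 0.63; limma, adjusted p = 0.769). Racgap1, a subunit of centralspindlin, had 4.10, 2.83 and 5.55 in wild type and 5.45, 5.88 and 5.53 in knockout, a difference of 1.46 (SE 0.57; limma, adjusted p = 0.769). In both genes wild-type replicate 3 was above 1 or more knockout livers. Kif20a, a motor of the central spindle, had 3.72, 3.71 and 5.83 in wild type and 5.69, 5.46 and 5.15 in knockout, a difference of 1.02 (SE 0.52; limma, adjusted p = 0.781). Wild-type replicate 3 was again the highest liver. Without it Kif20a differed by 1.72. Prc1, which bundles microtubules of the central spindle, differed by 1.70, and by 2.58 without that liver.

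Top2a, the topoisomerase that untangles sister chromatids, had values of 6.05, 5.20 and 7.47 in wild type and 7.50, 7.49 and 7.74 in knockout. The groups did not overlap, but wild-type replicate 3 was just under the lowest knockout liver. The difference was 1.33 (SE 0.49; limma, adjusted p = 0.76), and 1.95 without that liver. Mki67, the proliferation marker Ki-67, had 4.61, 4.17 and 7.06 in wild type and 6.94, 7.64 and 7.33 in knockout. Wild-type replicate 3 exceeded knockout replicate 1. The difference was 2.02 (SE 0.65; limma, adjusted p = 0.746), and 2.91 without that liver. Smc4, a condensin subunit, had 7.99, 7.73 and 8.39 in wild type and 8.61, 8.88 and 8.55 in knockout, a difference of 0.65 (SE 0.22; limma, adjusted p = 0.76). These groups did not overlap and wild-type replicate 3 stood apart from its group by less than in most members. Smc2, its condensin partner, had 6.85, 7.09 and 8.15 in wild type and 8.98, 8.51 and 7.62 in knockout, a difference of 1.01 (SE 0.42; limma, adjusted p = 0.772).

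The wild-type livers differed among themselves more than the knockout livers did. The SD over 3 livers was larger in wild type than in knockout in 38 of the 38 measured members, against 3374 of 8343 tested genes. Over the tested members the median SD was 1.09 in wild type and 0.26 in knockout, and over all tested genes it was 0.23 and 0.28. The wild-type SD of the members ran from 0.33 for Smc4 to 2.59 for Cdc20. In the knockout livers, Ect2, Smc2 and Incenp had the larger spreads, with SDs of 0.73, 0.69 and 0.63, while Ccne2 had an SD of 0.05. The median residual SD of the members, which sets the error of the test, was 0.79 against 0.28 over all tested genes.

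**Figure D3:**
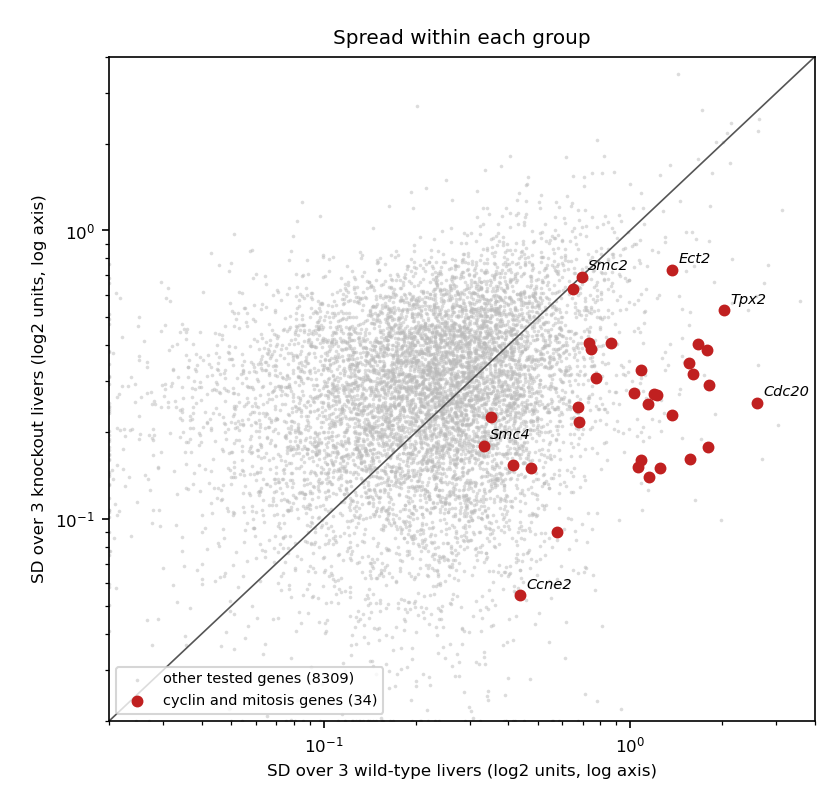
SD of the log2 value over the 3 knockout livers against the SD over the 3 wild-type livers, both on log axes, for the members and for all tested genes; values under 0.02 are drawn at 0.02. The members lie on the side where the wild-type SD is larger, around 1.09 on the wild-type axis and 0.26 on the knockout axis at the median.

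Further probe sets gave the same direction where they were bright. The members had 29 further probe sets with a single symbol, spread over 18 genes. Of these, 13 had a mean of at least 4 and 13 of the 13 had the direction of the probe set used, among them a second Ccna2 probe set with a difference of 1.22. Of the 16 dimmer ones, 12 did. Probe sets of 1 gene share the same RNA and are not further replicates.

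Other genes of the cell cycle were read from 5 lists, and limma called 0 genes in any of them with all 6 livers. Of 32 tested other mitosis genes, 30 were higher in knockout with a median difference of 0.79, and wild-type replicate 3 exceeded both other wild-type livers in 29. Kif2c, Nuf2, Cenph and Ncaph had wild-type means under 4 and entered only through the knockout livers, so they lend no support to a difference. Over the 45 measured genes of this list, 43 were higher in knockout. Cenpf, a kinetochore protein, had 3.86, 3.29 and 5.12 in wild type and 5.51, 5.46 and 5.49 in knockout, a difference of 1.40 (SE 0.40; limma, adjusted p = 0.729). Anln, the cytokinesis protein anillin, differed by 0.93. Ccnf, cyclin F, ran the other way, with 7.42, 7.27 and 7.65 in wild type and 7.17, 5.97 and 6.49 in knockout, a difference of -0.91 (SE 0.30; limma, adjusted p = 0.746) without overlap. Bub3, a checkpoint protein, differed by -0.03.

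DNA replication genes were mostly higher in knockout too, with a smaller spread among the wild-type livers. Of 32 tested, 26 were higher in knockout with a median difference of 0.42. Chaf1b, with a wild-type mean under 4, entered only through the knockout livers. Over the 35 measured genes of this list, 29 were higher. The groups did not overlap in 12 of the 32, all higher in knockout, against 5 of the 34 members and 4.27% of all tested genes. Their median wild-type SD was 0.25, against 0.32 in knockout and 1.09 for the members in wild type. The pattern of the members was present here too, at a smaller size. Wild-type replicate 3 exceeded both other wild-type livers in 24 of the 32 (75%), against 37.2% of all tested genes. Wild-type replicates 1 and 2 were both below every other liver in 16 (50%), against 12.4%. Rrm2, a subunit of ribonucleotide reductase, had 9.79, 10 and 9.89 in wild type and 11.16, 10.78 and 10.55 in knockout, a difference of 0.93 (SE 0.21; limma, adjusted p = 0.544). The 3 wild-type livers were alike in this gene. Mcm6, a helicase subunit, had 5.85, 7.15 and 7.21 in wild type and 8.08, 9.04 and 8.04 in knockout, a difference of 1.65 (SE 0.41; limma, adjusted p = 0.652), while Mcm10 and Gins4, both replication factors, differed by -0.50 and -0.20.

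Of 14 tested cell cycle inhibitors, 13 were higher in knockout with a median difference of 0.28. Cdkn2d, an inhibitor of the cyclin D kinases, had 4.33, 4.53 and 4.83 in wild type and 6.08, 5.75 and 5.35 in knockout, a difference of 1.16 (SE 0.24; limma, adjusted p = 0.487). Wee1, the kinase that restrains CDK1, differed by 1.11 and Rbl2, a pocket protein, by -0.20. Of 9 tested E2F, DREAM and MuvB factors, 5 were higher, with a median of 0.13. E2f1 differed by 1.36 (SE 0.35; limma, adjusted p = 0.655). Its wild-type mean was 3.83, under 4, so it entered the test only through the knockout livers and lends no support to a difference. E2f8 differed by 0.40, E2f6 by -0.35 and Rbbp4 by -0.09. Of 13 other cyclins and cyclin-dependent kinases, many of which act in transcription, 12 were higher with a median of 0.09. Ccnd3 and Ccnd2, the other D-type cyclins, differed by 0.35 and 0.46, and Ccnc by -0.09. Myc had a mean of 4.22 ± 0.21 (SD, n = 3) in wild type and 4.07 ± 0.54 (SD, n = 3) in knockout.

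**Figure D4:**
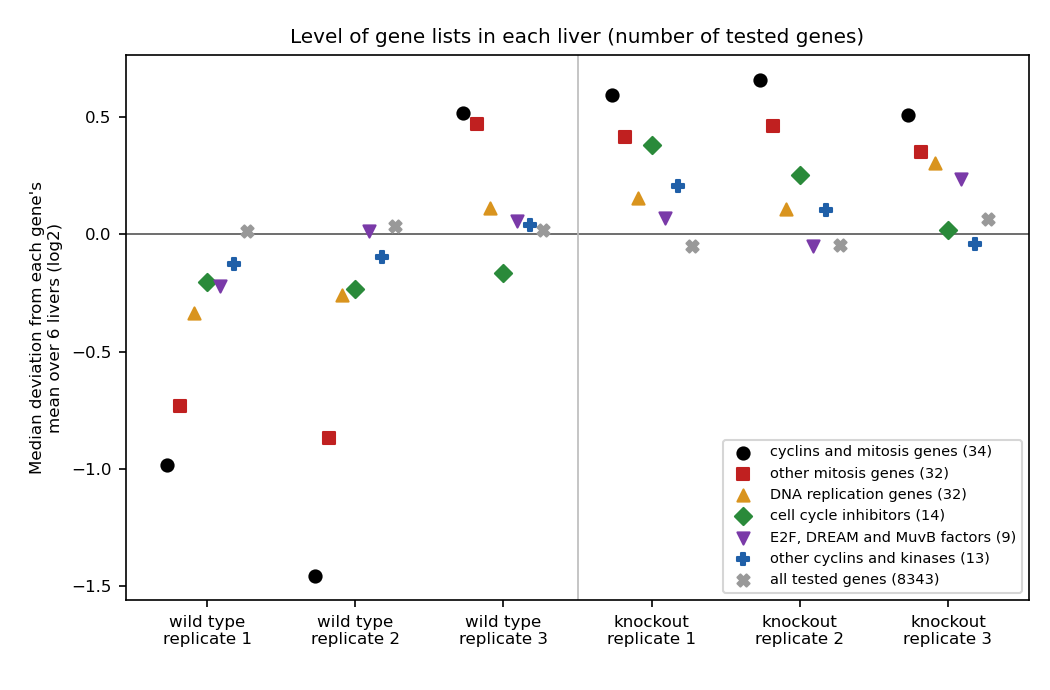
Median deviation of the tested genes of each list from their mean over the 6 livers, in log2 units, one point per liver. The members lie at -0.99, -1.46 and 0.52 in wild-type replicates 1, 2 and 3 and at 0.60, 0.66 and 0.51 in knockout replicates 1, 2 and 3.

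Markers of 11 cell types or states that a liver sample can hold were read in the same livers, and limma called 0 of them. The mean log2 level of 11 measured erythroid markers was 4.45, 4.10 and 4.07 in wild type and 3.88, 4.59 and 4.49 in knockout, and 7 of the 11 were under 4. That of 9 T lymphocyte and NK cell markers was 4.06, 4.13 and 3.90 against 3.87, 4.87 and 4.42, and that of 10 B lymphocyte and plasma cell markers 5.58, 5.38 and 5.17 against 4.54, 5.95 and 5.34. In these 3 lists knockout replicate 1 was the lowest liver and knockout replicate 2 the highest. The mean of 10 neutrophil and myeloid precursor markers was 4.0, 4.17 and 4.24 against 3.82, 4.80 and 4.73. That of 10 Kupffer cell and macrophage markers was 8.55, 8.62 and 8.62 against 9.04, 8.66 and 8.65. That of 9 endothelial markers was 7.42, 7.34 and 7.57 against 7.75, 7.46 and 7.38. The mean of 10 stellate cell and fibroblast markers was 7.48, 7.45 and 7.75 against 7.58, 7.49 and 7.32. The mean of 5 cholangiocyte and progenitor markers was 4.06, 4.0 and 4.19 against 3.83, 4.03 and 4.04, and that of 6 megakaryocyte and platelet markers 3.79, 3.72 and 3.99 against 3.82, 3.77 and 4.08. The hepatocyte, neutrophil, endothelial, stellate, cholangiocyte and platelet lists had a higher mean in wild-type replicate 3 than in both other wild-type livers. The margins were far smaller than in the members, whose means were 5.22, 4.66 and 6.66 in wild-type replicates 1, 2 and 3. The mean of 4 fetal liver genes lay between 3.73 and 4.16 over the livers, and 3 of the 4 were under 4. Other lists were partly dim as well. Under 4 were 6 of the 10 neutrophil, 5 of the 6 platelet and 4 of the 10 B lymphocyte markers. So were 3 of the 9 T lymphocyte and NK cell markers and 2 of the 5 cholangiocyte markers. The part of any of these cells in the members' values was not tested.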

How the data were processed

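The authors deposited 1 log2 expression value per probe set and array, and the submitters' processing notes name GCRMA 2.20.0 and R 2.11.1 without settings. GCRMA subtracts a modelled background, so differences between dim values are not proportional to RNA amounts. Of 22626 probe sets, 20380 had 1 symbol in the platform annotation; each of the 12393 genes was read from its probe set with the highest mean, and the 8343 with a mean of at least 4 were tested. The 2 genotypes were compared in R 4.3.3 by limma 3.58.1 (2-sided, Benjamini-Hochberg over all tested genes, call at 0.05). Detection calls were not used here, and the number of arrays limits precision.

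Members and lists were chosen with earlier results of these data known. In each role list, the 2 tested members with the smallest p, the 1 with the largest and Ccna2, Ccnb1, Ccnd1, Ccne1, Cdk1, Foxm1, Mki67 and Top2a get full statistics, and each pathway list gives the 2 smallest p in each direction. Values of other members were added after they were seen. The fit was checked on simulated data. Promoters came from RefSeq (GRCm38.p6). Alternatives covered the filter, probe set choice, variance trend, array weights, a replicate block and leaving out each liver.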

Additional observations from a re-analysis of the deposited data

How the results depend on the processing

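The count of members called was 0 with all 6 livers and ran from 0 to 15 when each liver was left out in turn, 15 being without wild-type replicate 3; it was 28 with array weights. Calls over all genes numbered 2, with 1 when the probe sets of a gene were averaged, 4 with a variance trend, 1748 with array weights and 1 to 38 when each liver was left out. Members at an unadjusted p under 0.05 numbered 20, 31 with array weights, and 5 to 29 when each liver was left out, with 9 and 10 without knockout replicates 2 and 3. Members without overlap numbered 5, and 5 to 30 when each liver was left out, with 8 and 9 without knockout replicates 1 and 3. Leaving out a liver cannot lower such a count for any set of genes. Over all tested genes the share rose from 4.27% to 14.3% without wild-type replicate 3. The counts at an unadjusted p and without overlap were both added after seeing the data. A filter at a mean of 6 tests fewer genes and left 21 members higher in knockout. The median difference was 1.19, and 0.81 to 1.83 when each liver was left out. Of the named genes, Ccne2 (-0.04 with all livers) ran from -0.24 to 0.19 when each liver was left out, turning positive without wild-type replicate 1, and Incenp (0.24) from -0.13 to 0.57, turning negative without wild-type replicate 2 and, at -0.06, without knockout replicate 3; the cause was not tested. Same-numbered livers correlated at -0.09, -0.09 and -0.19 in their deviations from the group means. With 3 livers a group, such values cannot decide whether the numbers pair livers. With the replicate block, 0 members and 2 genes were called and the median difference was 1.19. Precision is limited by 3 arrays a group, and dim values were not tested against background.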
